A study of Saccharomyces cerevisiae with 18 samples.

Results

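The RNA of budding yeast (Saccharomyces cerevisiae) cells lacking Hmo1 was compared with that of cells holding it, in strains that all carried the top2-1 allele. The comparison set 1 library of hmo1Δ;top2-1 against 1 library of top2-1. It covered the features with a mean of at least 20 expected counts over these 2 libraries, which were 5964 of the 7126 in the files. Of these, 5568 were nuclear coding genes, 24 were small nucleolar RNAs, 11 were pseudogenes, 4 were mitochondrial and 342 had no match in the reference table. The last feature kept had a mean of 20 counts and the first left out had 19.505.

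Hmo1 is an abundant chromatin protein with HMG boxes, domains that bind and bend DNA with little regard to its sequence. It is known in yeast for its place on the ribosomal RNA genes and at the promoters of many ribosomal protein genes. Top2 is the enzyme that passes one DNA duplex through another, which removes supercoils and unlinks chromosomes. The top2-1 allele makes a temperature-sensitive enzyme, so cells of that strain are used at a high temperature to lower Top2 activity. The comparison therefore asks how the transcript levels of such cells differ when Hmo1 is also missing.

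The study as a whole joined RNA sequencing of Hmo1 and Top2 mutants with chromatin immunoprecipitation and a Top2 interaction map. For the RNA, log-phase cultures at 28 °C were moved to 37 °C for 60 min. The 4 libraries used below were wild type, hmo1Δ, top2-1 and hmo1Δ;top2-1, all from that regime. The wild type and hmo1Δ libraries form a second pair, with an intact TOP2 gene, that also differs by the loss of Hmo1. It shares no library with the first. RNA was depleted of ribosomal RNA and selected for poly-A tails, and strand-specific libraries were read on an Ion Proton.

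There were no replicates on either side, so no test and no p-value could be given. The top2-1 library held 5591118 expected counts and the hmo1Δ;top2-1 library 9274003, of which nuclear coding genes took 98.0% and 97.9%. Ratios are log2 values of hmo1Δ;top2-1 over top2-1, from CPM, counts scaled to library size, with TMM factors (trimmed mean of M values) and a prior count of 2. Brackets after a ratio hold its exact 95% counting interval, and brackets after a median hold its order-statistic interval over members. Counting intervals treat each count as a separate molecule and leave out differences between cultures. Without molecular identifiers PCR copies are counted too, so the intervals may be too narrow even for counting error. Strain construction, culture and library preparation cannot be told apart from the loss of Hmo1 in such a pair.

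HMO1 itself (chromosome IV, 812110 to 812850, build R64) had 1327 counts in top2-1 and 0 in hmo1Δ;top2-1. Against a floor of 3 counts in the library at 0, it was at least 692-fold lower. The HMO1 gene was likewise at 232 CPM in wild type and at 0 in hmo1Δ, so both deletion libraries matched their labels. TRP1 (chromosome IV, 461842 to 462516), which makes an enzyme of tryptophan synthesis and is a common selection marker, had 204 counts in top2-1 and 0 in hmo1Δ;top2-1, at least 106-fold lower. It was also at 30.7 CPM in wild type and 0 in hmo1Δ, so the loss of TRP1 signal went with the loss of Hmo1 in both pairs. Likeness between the pairs therefore cannot tell the loss of Hmo1 apart from a strain difference that goes with it. The genes on either side of HMO1 had ratios of -0.27 for ARG82 and -0.27 for RSM24, and those beside TRP1 had 0.07 for SOK1 and -0.02 for GAL3.

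The topoisomerase genes differed little. TOP2 stood at 156 CPM in top2-1 and 157 CPM in hmo1Δ;top2-1, a ratio of 0.01 (-0.11 to 0.13). TOP1, the enzyme that relaxes supercoils by single-strand cuts, stood at 210 and 160 CPM, a ratio of -0.39 (-0.50 to -0.28). Among relatives of Hmo1, the HMG-box gene NHP6B had a ratio of 0.45 and its near-identical copy NHP6A -0.44, while HHO1, the linker histone gene, had 0.51. None of these reached a 2-fold difference.

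Most transcripts lay close to equality. A ratio of at least 1 is called 2-fold higher and a ratio of at most -1 is called 2-fold lower; this is a size threshold and carries no test. By this rule 214 features (3.59%) were higher and 206 (3.45%) were lower in hmo1Δ;top2-1, and 93.0% lay within 2-fold. The middle 50% of ratios ran from -0.29 to 0.29. For 105 of the higher and 121 of the lower features the whole counting interval lay past 2-fold. With library totals in place of TMM, 174 were higher and 253 lower. With the deposited TPM, 135 were higher and 267 lower; that alternative changed the scaling, the division by effective length and the added constant (1 TPM in place of 2 counts) together, and their parts were not separated. These alternatives put the median of all features at -0.09 and -0.12, against -0.004 under TMM, and ratios below are relative to the TMM centre.

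**Figure D1:**
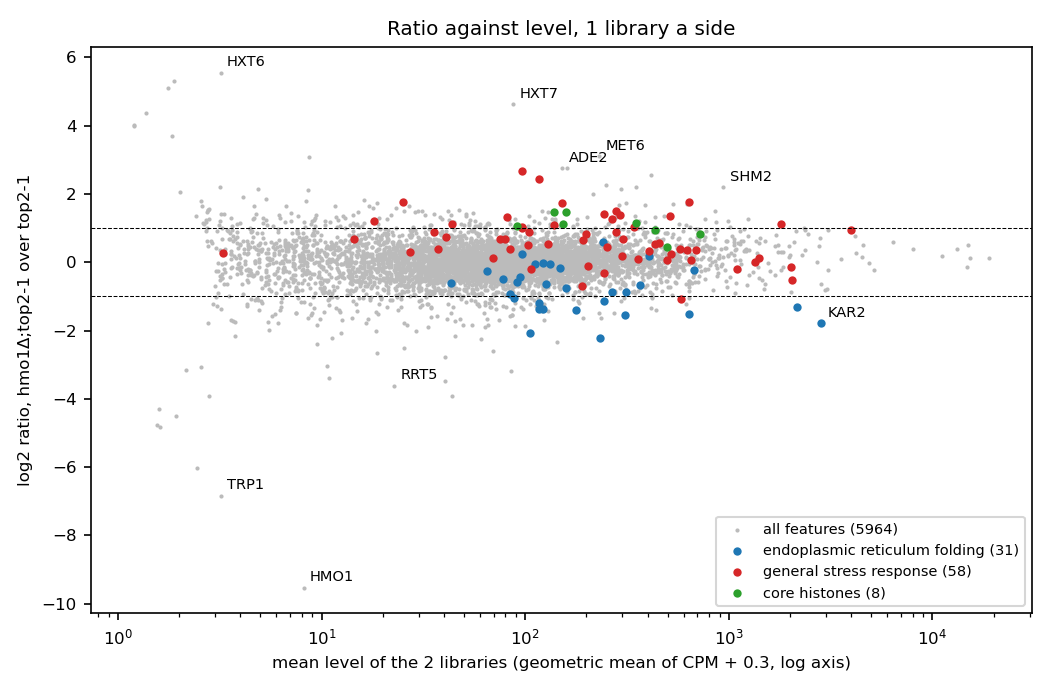
Log2 ratio of hmo1Δ;top2-1 over top2-1 (vertical axis) against the mean level of the 2 libraries (geometric mean of CPM + 0.3, log axis), 1 point per feature. Dashed lines mark 2-fold; the 31 endoplasmic reticulum folding genes lie mostly below 0 and all 8 core histone genes above it, and HMO1 lies below all others.

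Among the gene lists, the one with the lowest median was the protein folding machinery of the endoplasmic reticulum (ER), where secreted and membrane proteins are folded and given disulfide bonds. Of 31 measured ER folding and translocation genes, 12 were at least 2-fold lower and 0 were 2-fold higher. Over all features 3.45% were 2-fold lower and 3.59% higher. Counts in the lists below are to be read against these shares. The median ratio was -0.74 (interval of the median -1.19 to -0.42), against -0.004 over all features. Together these 31 genes took 1.76% of counts in top2-1 (exact interval 1.75% to 1.77%) and 0.752% in hmo1Δ;top2-1 (0.747% to 0.758%).

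KAR2, the Hsp70 chaperone of the ER lumen, had 5295 CPM in top2-1 and 1529 CPM in hmo1Δ;top2-1, a ratio of -1.79 (-1.82 to -1.76). The KAR2 level was 6568 CPM in wild type and 1922 CPM in hmo1Δ, so both libraries without Hmo1 were low and both with it were high. Partners of Kar2 were low with it. SIL1, its nucleotide exchange factor, went from 505 to 108 CPM (ratio -2.22), LHS1, an Hsp70-like exchange factor, from 526 to 181 CPM (-1.54), and JEM1, a J-domain cochaperone, from 197 to 76.0 CPM (-1.37).

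The enzymes of disulfide bond formation showed the same direction. PDI1, the protein disulfide isomerase, went from 3417 to 1368 CPM, a ratio of -1.32 (-1.35 to -1.29). ERO1, the oxidase that supplies Pdi1, went from 1078 to 376 CPM, a ratio of -1.52. The Pdi1 relatives MPD1 and EUG1 had ratios of -2.08 and -1.38. HAC1, the transcription factor that turns on ER chaperone genes when unfolded proteins build up, is given here after its value was seen: it stood at 728 CPM in top2-1 and 627 CPM in hmo1Δ;top2-1, a ratio of -0.21, and splicing of its RNA was not measured. Among the lowest named genes outside the list were MCD4, an ER enzyme that builds the glycolipid anchor of cell surface proteins, at 322 and 63.6 CPM (-2.33), and YET2, an ER membrane protein gene, at 60.5 and 10.4 CPM (-2.51).

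Core histone genes stood at the other end. All 8 had ratios above 0, 5 were at least 2-fold higher and the median was 1.08. Copies of one histone share much of their sequence, so the pairs were also summed. H2A (HTA1 and HTA2) went from 298 to 647 CPM, a ratio of 1.12 (1.04 to 1.20), and H2B (HTB1 and HTB2) from 199 to 491 CPM, a ratio of 1.30 (1.21 to 1.40). H3 (HHT1 and HHT2) went from 850 to 1569 CPM, a ratio of 0.88 (0.84 to 0.93), and H4 (HHF1 and HHF2) from 508 to 808 CPM, a ratio of 0.67 (0.61 to 0.73). Both deletion libraries were above their partner for each histone, since the summed ratios of hmo1Δ over wild type were 1.76, 0.69, 0.63 and 0.48 in the same order. Histone variants stayed within 2-fold: HTZ1, which encodes the H2A variant of promoter nucleosomes, was at 30.6 and 17.1 CPM (-0.83), and CSE4, the centromeric H3, at 30.7 and 38.4 CPM (0.32). Core histone messages are made mainly in S phase, and the share of cells in that phase was not measured in these libraries.

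**Figure D2:**
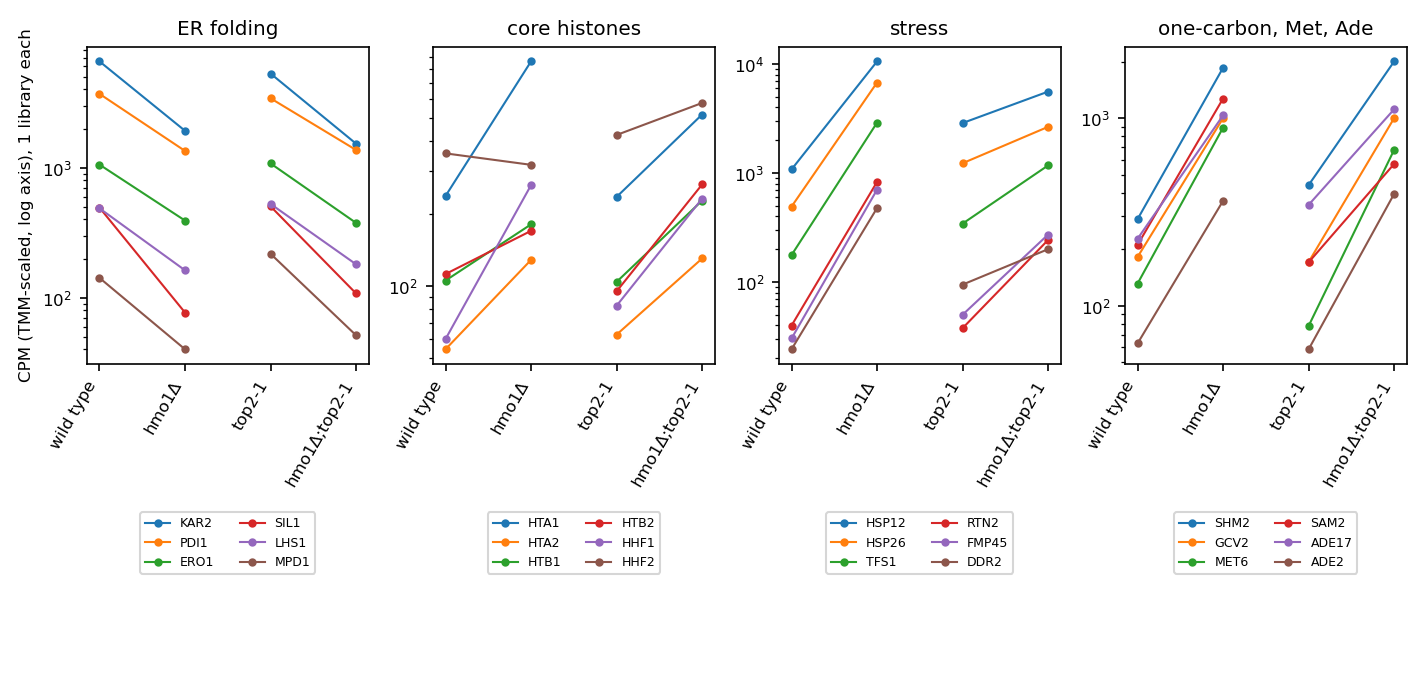
CPM (TMM-scaled, log axis) of single genes in the 4 libraries at 37 °C, 1 library each; lines join the 2 libraries of a pair, with Hmo1 on the left and without it on the right. KAR2 is at 6568, 1922, 5295 and 1529 CPM from left to right, and HSP12 at 1078, 10552, 2871 and 5576.

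General stress genes, the targets of the Msn2 and Msn4 activators that are switched on by heat, oxidants and starvation, were higher without Hmo1. Of 58 measured, 17 were at least 2-fold higher and 1 was 2-fold lower, with a median of 0.61 (0.38 to 0.89). Their share of counts was 2.45% in top2-1 (2.44% to 2.46%) and 3.14% in hmo1Δ;top2-1 (3.13% to 3.16%). RTN2, a reticulon of the ER membrane, had 37.7 CPM in top2-1 and 243 CPM in hmo1Δ;top2-1 (2.68), FMP45, a plasma membrane protein gene, 50.1 and 272 CPM (2.44), and TFS1, an inhibitor of a vacuolar carboxypeptidase, 343 and 1174 CPM (1.77). HSP12, a small membrane-protecting protein, was at 2871 and 5576 CPM, a ratio of 0.96 that misses 2-fold. The lower member was HSP78, a mitochondrial disaggregase, at 845 and 402 CPM (-1.07).

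Trehalose and glycogen genes, which make and use the storage carbohydrates of stressed cells, had a median of 0.53 over 21 genes, of which 1 was 2-fold higher and 1 lower (4.76% each). The former was GPH1, glycogen phosphorylase (238 and 487 CPM, 1.03), and the latter PGM1, a phosphoglucomutase (150 and 60.6 CPM, -1.30). Among 37 oxidative stress genes, 4 were higher (10.8%) and 1 was lower (2.70%), with a median of 0.26. Over all features the shares were 3.59% and 3.45%.

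Chaperone genes of the cytosol and mitochondria were mixed in direction. Over 40 heat shock protein genes the median was -0.20 (-0.50 to -0.04), with 4 higher (10%) and 1 lower (2.5%). SSA1 and SSA2, the main cytosolic Hsp70 genes, summed to 6629 CPM in top2-1 and 3731 CPM in hmo1Δ;top2-1, a ratio of -0.83 (-0.85 to -0.81), which is short of 2-fold. HSC82 and HSP82, which encode Hsp90, summed to 7314 and 5162 CPM (-0.50), and STI1, their cochaperone, was at 1955 and 1140 CPM (-0.78). SSB1 and SSB2, the Hsp70 genes of chaperones that bind new chains at the ribosome, summed to 1665 and 2356 CPM, a ratio of 0.50 (0.47 to 0.53). The 10 genes for Hsp100 and small heat shock proteins had a median of 0.29, with 3 higher and 1 lower. SSA3, a stress-induced Hsp70 gene, went from 140 to 621 CPM (2.15), and HSP31, a methylglyoxalase and chaperone, from 162 to 517 CPM (1.67). In the pair with intact TOP2, the SSA1 and SSA2 sum had a ratio of 0.07 and the Hsp90 sum 0.24. The 36 proteasome genes held 0 members past 2-fold, with ratios from -0.50 to 0.70. Their median was -0.18 (-0.25 to -0.13) here and 0.04 in the other pair.

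**Figure D3:**
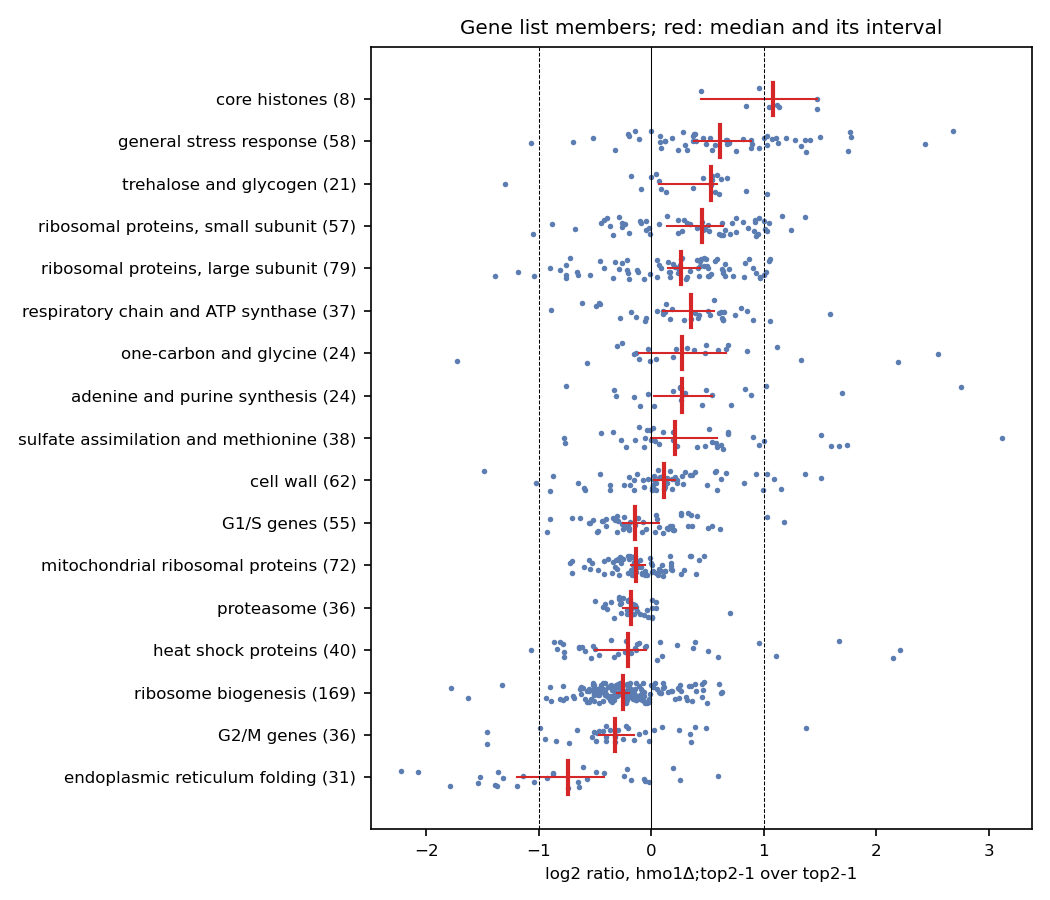
Log2 ratio of hmo1Δ;top2-1 over top2-1 for each measured member of 17 gene lists, with the number of members in brackets after the name. Red bars mark the median and its order-statistic interval over members, and dashed lines mark 2-fold; the lists run from core histones (median 1.08) to ER folding (-0.74).

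In the one-carbon, methionine and purine routes a minority of genes was 2-fold higher. One-carbon genes move single carbon units on folate between serine, glycine, purines and methionine. SHM2, the cytosolic serine hydroxymethyltransferase, was at 439 CPM in top2-1 and 2007 CPM in hmo1Δ;top2-1 (2.19), and the glycine cleavage genes GCV2 and GCV1 had ratios of 2.55 and 1.33. MTD1, which oxidises folate-bound carbon, had 1.12. Of 24 genes in the list these 4 were higher, with a median of 0.27 whose interval spans 0 (-0.11 to 0.66). The lower member was DFR1, dihydrofolate reductase, at 81.7 and 24.5 CPM (-1.73).

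In sulfate assimilation and methionine synthesis 6 of 38 genes were higher and 0 were lower, with a median of 0.21 (0.00076 to 0.59). MET6, the enzyme that makes methionine from homocysteine, was at 77.9 CPM in top2-1 and 678 CPM in hmo1Δ;top2-1, a ratio of 3.12 (2.99 to 3.26). SAM1 and SAM2, near-identical genes for the enzyme that turns methionine into S-adenosylmethionine, summed to 386 and 1258 CPM (1.70). Their sum had a ratio of 2.30 in hmo1Δ over wild type. The 10 sulfate assimilation genes proper held 0 members past 2-fold and had a median of 0.13. Purine synthesis had a median of 0.27 (0.02 to 0.54) and 3 of 24 genes higher: ADE2 at 58.5 and 395 CPM (2.75), ADE17 at 345 and 1115 CPM (1.69) and ADE8 at 121 and 245 CPM (1.02). ADE2 is also a common marker gene. Of 8 marker genes measured 2 were higher, ADE2 and HIS3, of histidine synthesis (24.6 and 70.4 CPM, 1.50), and TRP1 was lower. The other 5 were within 2-fold, among them LYS2 (0.61), URA3 (0.56) and LEU2 (0.51). Whether marker alleles differ between the strains was not tested.

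Other nutrient genes were split. GAP1, the general amino acid permease, went from 163 to 751 CPM (2.20), and SNZ1, of vitamin B6 synthesis, from 107 to 429 CPM (2.00). LYS1, the last step of lysine synthesis, was at 87.8 and 210 CPM (1.26), with a median of 0.59 over 9 lysine genes. The 9 arginine genes had a median of -0.40 and 0 members past 2-fold. Of 16 thiamine genes 4 were lower, among them THI20 (198 and 73.4 CPM, -1.43) and THI12 (37.1 and 8.87 CPM, -2.03), a member of a family of near-identical copies.

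The highest ratio among well-measured genes belonged to the hexose transporters HXT6 and HXT7. These are near-identical neighbours whose reads cannot be split with certainty, so they were summed: 104 counts in top2-1 against 4256 in hmo1Δ;top2-1, or 17.4 and 455 CPM, a ratio of 4.71 (4.43 to 5.01). Over 14 hexose transporter genes 4 were higher and 1 was lower, with a median of 0.06. DAK2, a dihydroxyacetone kinase gene, was at 61.6 and 416 CPM (2.75), and AQY3, an aquaglyceroporin gene, at 114 and 547 CPM (2.26). In absolute terms the largest gain was that of PDC1, pyruvate decarboxylase, from 12677 to 17804 CPM, a ratio of 0.49. At the low end were RRT5, of unknown role, at 79.2 and 6.20 CPM (-3.61), NDJ1, a meiotic telomere protein gene, at 30.4 and 3.42 CPM (-3.05), and ATG17, a scaffold of autophagy, at 95.5 and 21.1 CPM (-2.16).

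Ribosomal protein genes, many of which have Hmo1 at their promoters, were not lower as a class. The 79 large-subunit genes had a median of 0.26 (0.15 to 0.43), with 4 higher and 3 lower, and the 57 small-subunit genes 0.45 (0.14 to 0.63), with 7 higher and 1 lower. The large-subunit shares, 5.06% and 3.80%, were near those of all features, 3.59% and 3.45%. The small-subunit shares were 12.3% and 1.75%. In hmo1Δ over wild type the medians were 0.10 for the large subunit and 0.20 for the small. Large-subunit genes took 5.86% of counts in top2-1 and 6.85% in hmo1Δ;top2-1. Duplicated genes often diverged within a pair. Of 58 pairs with both copies measured, 29 had copies on opposite sides of 0 and 16 had copies over 1 log2 unit apart.

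RPL9B went from 711 to 271 CPM (-1.39) while its partner RPL9A had a ratio of 0.50, and RPS21A went from 215 to 554 CPM (1.36) while RPS21B had -0.09. Paralogs share sequence, and how far the sharing out of reads sets such gaps was not tested. Summing copies removed the extremes: no pair passed 2-fold, the sums ran from -0.51 to 0.96, and 41 of 58 were above 0 with a median of 0.36 (0.24 to 0.48). The 20 genes without a measured partner had a median of 0.49.

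Genes that build the ribosome showed the other direction in small steps. Of 169 ribosome biogenesis genes 0 were higher and 3 were lower, and only 35 had a ratio above the median of all features. The share lower, 1.78%, was below the 3.45% of all features. The list had a median of -0.26 (-0.31 to -0.20). In hmo1Δ over wild type its median was -0.57, with 19 genes 2-fold lower and 0 higher. DHR2, an RNA helicase of small-subunit processing, was at 47.0 and 13.5 CPM (-1.78), DBP2, a helicase of RNA quality control and processing, at 339 and 109 CPM (-1.63), and FAF1, a small-subunit factor, at 54.0 and 21.4 CPM (-1.33). The 10 RNA polymerase III subunit genes had a median of -0.48 with 0 past 2-fold. The 37 respiratory chain and ATP synthase genes had a median of 0.35, with COX26 (13.0 and 39.8 CPM, 1.59) and QCR10 (6.18 and 13.1 CPM, 1.05) higher.

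Cell cycle genes were mixed. Genes of G2/M had a median of -0.32 (-0.46 to -0.16) over 36, with CLB1, a mitotic cyclin (30.6 and 10.9 CPM, -1.46), and HOF1, of cytokinesis (20.2 and 7.15 CPM, -1.46), lower, and ASE1, a spindle midzone protein gene (26.4 and 69.1 CPM, 1.38), higher. Among 13 genes for daughter cell separation 3 were lower: AMN1 (-1.53), EGT2 (-1.36) and DSE1 (-1.24). The 55 G1/S genes had a median of -0.15, with 2 higher and 0 lower. The share higher was 3.64% in G1/S and 2.78% in G2/M, against 3.59% of all features. The share lower in G2/M was 5.56%, against 3.45%. Of 25 cell wall mannoprotein genes 5 were higher and 2 were lower, led by PST1 (509 and 1445 CPM, 1.51) and YGP1 (320 and 826 CPM, 1.37).

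Fewer features passed 2-fold here than in the pair with intact TOP2, but the pairs were not measured alike. The filter used counts of the top2-1 pair only. The wild type and hmo1Δ libraries, at 4752471 and 7096283 expected counts, were each shallower than their top2-1 counterparts, and low counts widen ratios. How much of the gap comes from this was not tested. In hmo1Δ over wild type, 421 of the same features (7.06%) were 2-fold higher and 308 (5.16%) lower, and the standard deviation of ratios across features was 0.76 there and 0.61 here. Of the 214 features higher here, 131 were also higher there, which is 61.2% of the first list and 31.1% of the second. Of the 206 lower features, 125 were also lower there, 60.7% and 40.6% of the lists. A 2-fold difference of opposite sign there met 3 of the higher and 4 of the lower features. The rank correlation of the ratios across genes was 0.63, a description over genes that are not replicates.

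Features chosen as 2-fold higher in the wild-type pair had a median ratio of 1.39 there and 0.67 in the top2-1 pair. Those chosen in the top2-1 pair had medians of 1.27 in it and 1.23 in the wild-type pair. Features chosen as 2-fold lower had medians of -1.29 and -0.84 when chosen in the wild-type pair. When chosen in the top2-1 pair they had -1.32 in it and -1.14 in the wild-type pair. Choosing features by their ratio in a pair favours larger ratios in that pair. ER folding and histone genes had similar medians in the 2 pairs, at -0.74 here and -0.99 there for the former, and at 1.08 and 0.92 for the latter. General stress genes had a median of 0.61 here and 2.18 there, where 48 of 58 were 2-fold higher. With 1 library in each group these differences between backgrounds could not be tested.

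**Figure D4:**
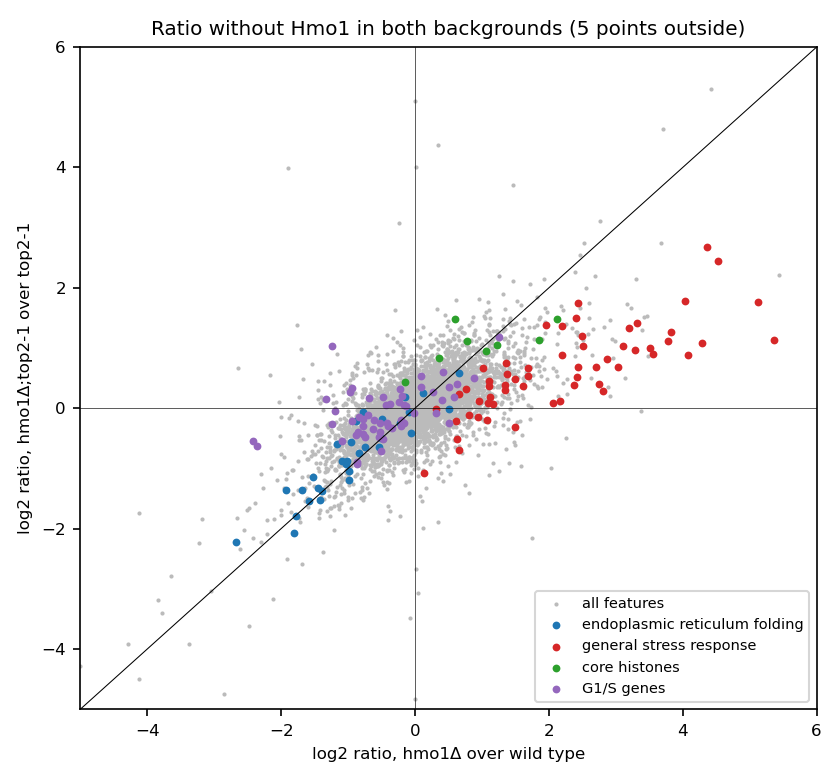
Log2 ratio of hmo1Δ;top2-1 over top2-1 (vertical axis) against hmo1Δ over wild type (horizontal axis), 1 point per feature, with the line of equal ratios; 5 points lie outside the axes. Stress genes (red) lie to the right of the line of equality, with medians of 0.61 and 2.18, and ER folding genes (blue) lie near it.

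The stress genes that differed most between pairs were high in hmo1Δ and intermediate in hmo1Δ;top2-1. SPG4, a gene linked to survival in stationary phase, was at 4.63 CPM in wild type, 202 in hmo1Δ, 29.2 in top2-1 and 64.2 in hmo1Δ;top2-1, ratios of 5.36 and 1.13. DDR2, a stress-induced gene of unknown function, was at 24.2, 477, 94.7 and 200 CPM in that order. HSP26, a small chaperone, was at 492, 6757, 1229 and 2650 CPM. In these 3 genes top2-1 lay above wild type and hmo1Δ;top2-1 lay below hmo1Δ. Genes picked for a large negative difference between pairs tend to show this order, so it is not a separate result.

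Some genes of the G1/S transition stood at the other end. The 55 G1/S genes had a median of -0.48 in the wild-type pair and -0.15 here. In the wild-type pair 7 of them were 2-fold lower and 1 higher. CLN2, a G1 cyclin, was at 148 CPM in wild type, 58.2 in hmo1Δ, 56.7 in top2-1 and 63.0 in hmo1Δ;top2-1, so its ratio was -1.34 in the wild-type pair and 0.15 (-0.04 to 0.35) here. SVS1, a cell wall protein gene, was at 116, 21.5, 57.8 and 39.4 CPM, and TOS4, a G1/S target gene, at 104, 20.0, 53.1 and 34.1 CPM. Wild type was the high library for each of these 3 genes. That too is favoured among genes at this end of the difference between pairs, and it is not a separate result.

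Large ratios were more frequent near chromosome ends than elsewhere, a description with no test. Within 20 kb of a chromosome end, 24 of 151 coding genes (15.9%) were higher and 9 (5.96%) lower, with a median of 0.24 (0.05 to 0.40). Among the 107 of these with a mean of at least 100 counts, 14 were higher and 6 lower. The shares of all features under that filter are not given, so these counts have no background here. Median levels in top2-1 were 19.7 CPM within 10 kb of an end and 32.4 CPM from 10 to 20 kb. Beyond 100 kb the median level was 78.5 CPM. In hmo1Δ over wild type, 29 of the 151 genes were higher. Named examples include GTT1, a glutathione transferase gene (82.2 and 276 CPM, 1.74), and COS10, of a subtelomeric membrane protein family (63.7 and 16.9 CPM, -1.90). More than 100 kb from an end, 2.83% of 4235 genes were higher and 3.19% lower. Medians of whole chromosomes ran from -0.06 to 0.09.

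Coding length also went with the ratio. Coding genes were split by length into 10 bins. The shortest bin, 90 to 450 bases, had a median of 0.12 (0.03 to 0.17) and the longest bin, of at least 2850 bases, -0.14 (-0.18 to -0.10). In hmo1Δ over wild type the same 2 bins had medians of 0.10 (0.03 to 0.17) and -0.22 (-0.26 to -0.19). The gap between length and effective length in the files was 135 bases in top2-1 and 121 in hmo1Δ;top2-1. It was 137 bases in wild type and 131 in hmo1Δ. The cause of the length trend was not tested. In TPM, which divides by effective length and here had 1 added before the log, the shortest bin was at 0.03 relative to all features and the longest at -0.10. Small-subunit ribosomal protein genes, which are short, had a relative median of 0.34 in TPM against 0.45 in counts. Within the shortest bin, 74 ribosomal protein genes had a median of 0.38 and the 488 other genes 0.05.

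**Figure D5:**
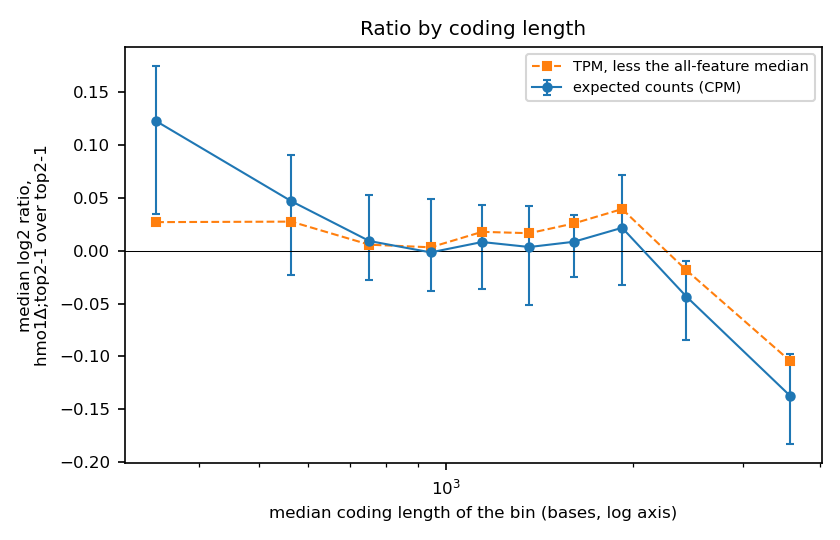
Median log2 ratio of hmo1Δ;top2-1 over top2-1 in 10 bins of coding length (log axis, bases); circles with order-statistic intervals are from expected counts and squares from TPM after the all-feature median is taken off. The shortest bin is at 0.12 in counts and 0.03 in TPM, and the longest at -0.14 and -0.10.

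Peaks of Flag-tagged Hmo1 were set beside the ratios. They came from a strain with the tag and a control plasmid after 2 h 15 min at 37 °C, whose title and genotype label disagree on whether it also carried top2-1 and top1Δ. The deposited list held 1511 peaks that covered 32.1% of the genome. Of 5568 coding genes, 2508 had a peak in the 500 bp before the start codon. Their median ratio was 0.04 (0.01 to 0.06), with 4.43% higher and 3.07% lower. The 3060 without a peak had a median of -0.04 (-0.06 to -0.02), with 2.32% higher and 3.14% lower. The same classes had medians of 0.05 and -0.08 in hmo1Δ over wild type. Median levels in top2-1 were 95.6 CPM with a peak and 68.3 CPM without one, and the part played by level was not tested. A peak stood before 61.0% of the higher coding genes and 44.5% of the lower. The share among the lower genes was thus close to that of all coding genes, 2508 of 5568. Among ribosomal protein genes the 110 with a peak had a median of 0.25 and the 26 without one 0.48.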

How the data were processed

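The authors deposited RSEM expected counts and TPM per gene, after STAR alignment to R64 per the submitters' processing notes; no version is stated. The deposited Hmo1 list gives a peak score of unstated scale, used for ranking only. Gene names and positions came from the RefSeq table of R64, in which 964 of 7126 features had no match. The filter was a mean expected count of 20 or more across both libraries of the top2-1 pair. TMM factors over the 4 libraries at 37 °C and log2 CPM with a prior count of 2 came from edgeR 4.0.16 in R 4.3.3, on unrounded expected counts. Exact (Clopper-Pearson) 95% intervals used rounded counts and a floor of 3 counts for a library at 0. List medians have order-statistic intervals, and no set test was run. Distances to chromosome ends took the largest coordinate in the table as the length. The script for ratios and intervals was checked on simulated counts with known folds, which is no test of these libraries. No sequence motif was searched.

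Alternatives were library totals, TMM over 2 or 5 libraries, DESeq2 1.42.0 size factors, TPM (pseudocount 1), a prior count of 0.5, other count filters and other peak windows.

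Named genes are HMO1, TOP1, TOP2 and marker genes; the 20 highest and 20 lowest ratios with a mean of at least 100 counts; the 10 largest gains and losses in CPM; the 4 (8 in some lists) members of each list furthest from the median; and the 10 largest differences each way between the pairs. The comparison, the gene lists and this rule were chosen with earlier results of these data known.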

Additional observations from a re-analysis of the deposited data

Results flagged for a closer look

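PCL1, a G1 cyclin gene, was at 25.2 CPM in wild type and 10.5 CPM in hmo1Δ, a ratio of -1.24 (-1.71 to -0.82), and at 8.02 CPM in top2-1 and 16.7 CPM in hmo1Δ;top2-1, a ratio of 1.03 (0.58 to 1.55). It was 2-fold lower without Hmo1 in the pair with intact TOP2 and 2-fold higher without it in the top2-1 pair, the ratios being 2.27 apart. Each ratio rests on 1 library a side, the top2-1 value on 48 counts, and the difference was not tested.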

How the results depend on the processing

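No replicate could be left out, since each side held 1 library, and no paired analysis was possible because no group had a second library. The count of features at least 2-fold higher was 214 with TMM and 135 with the deposited TPM plus 1; its scaling, length division and added constant were not separated. Every other alternative kept the counts of higher and of lower features within 1.5 times, between 152 and 309 for the higher and between 145 and 308 for the lower; the widest counts came from applying no filter. Medians of the 52 gene lists stayed within their order-statistic intervals under each alternative that gave a value, after the all-feature median was taken off; the PAU family, with 5 members, has no such interval. Of 451 single ratios, 163 moved beyond their counting interval with TPM and 87 with library totals, and 0 ratios past 2-fold changed sign. The rank correlation between the pairs was 0.67 at a mean of at least 100 counts. Depth limits genes near 20 counts, whose intervals span more than 2-fold.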

Other observations

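Gag-Pol reading frames of Ty retrotransposons, of which 19 were measured, had a median ratio of -2.25, with 17 at least 2-fold lower; in hmo1Δ over wild type the median was -2.30. Copies share reads. In TPM with 1 added before the log, the median relative to all features was -1.29. The added 1 shrinks ratios of frames at low TPM. YER138C, at 1.18 and 0 TPM, had -4.75 in counts and -1.12 in TPM. YBL100W-B, at 38.2 and 3.88 TPM, had -3.19 and -3.01. YBL100W-B was at 256 CPM in top2-1 and 27.8 CPM in hmo1Δ;top2-1, and YGR109W-B stood apart with a ratio of 0.18 (-0.10 to 0.47). Whether the strains hold the same Ty insertions was not tested.

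Ribosomal RNA left after depletion was lower in hmo1Δ;top2-1: RDN18-2 was at 135 CPM in top2-1 and 11.8 CPM, and RDN25-1 at 189 and 52.0 CPM. RDN18-2 was at 136 CPM in wild type and 129 CPM in hmo1Δ. The RNA had been depleted of ribosomal RNA and selected for poly-A tails, so these values are not levels in the cells. RPR1, the RNA of RNase P, was at 31.9 and 10.9 CPM.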
